A study of Mus musculus with 8 samples.

Results

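The cells described here were the SN4741 cells with the highest share of fibrillar collagen messages after the shift to 39 °C. In each of the 4 libraries at 39 °C, cells with at most 15% mitochondrial UMIs, between 200 and 6000 detected genes and at least 5000 UMIs were ranked by the percentage of their UMIs that came from Col1a1, Col1a2 and Col3a1, and the top 10% were taken. A UMI is a molecular barcode that counts 1 captured mRNA molecule. The rule selected 813 of the 8133 cells kept at 39 °C, namely 95, 238, 232 and 248 cells in replicates 1 to 4, out of 19125 cells in the 8 libraries of both temperatures. They are called collagen-high cells. They were compared, inside each library, with the collagen-low cells, the lower 50% of the same ranking (4066 cells). The cells were harvested once, so a cell that kept its collagen message through the shift and a cell that gained it afterwards cannot be told apart, and the name says only that the share was high at harvest.

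SN4741 is a mouse line established from embryonic substantia nigra and used as a dopaminergic neuron progenitor. It carries a temperature-sensitive SV40 T antigen driven by the tyrosine hydroxylase promoter, is reported to be clonal, and has an unstable, mostly triploid karyotype. Its genotype label was WT in all 8 libraries. The 4 libraries at 37 °C came from undifferentiated cultures in DMEM with 10% fetal bovine serum, and the 4 at 39 °C from cultures moved 24 h after passage into DMEM with 0.5% serum for 48 h, so temperature and serum changed together. The labels do not say whether the replicates were separate cultures, so p-values measure the spread between these libraries, which may be technical. Those of edgeR also draw on the spread of other genes.

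Type I collagen is built from the products of Col1a1 and Col1a2, and type III collagen from that of Col3a1. The chains are hydroxylated and folded in the endoplasmic reticulum, trimmed outside the cell and cross-linked by lysyl oxidases into the fibrils that give connective tissue its strength. Fibroblasts, meningeal cells and pericytes are the usual sources in and around the brain, and cells that make much collagen often carry actin-based contractile fibers driven by serum response factor (SRF).

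The 39 °C libraries held 22988911 to 28879724 UMIs as deposited. After the limits on cells, the collagen-high cells of a library summed to 1861508 to 3265655 UMIs and the collagen-low cells to 7844889 to 12416254. No pair of libraries shared more than 5 cell barcodes. No doublet caller was run, and the upper limit on genes was the only filter on doublets. Collagen-high cells held more UMIs than collagen-low cells of their own library, with median UMIs of 18859, 11685, 13190 and 9187 in replicates 1 to 4 against 15587, 8382, 9277 and 7550. With every cell thinned at random to 5000 UMIs the median number of detected genes lay between 2126 and 2151 in the 4 sets of collagen-high cells and between 2104 and 2120 in the collagen-low cells. The median mitochondrial share was lower in the collagen-high cells of each library, at 7.40 to 8.39% against 8.14 to 8.83%. The total UMI count is the denominator of the ranking, so none of these measures is independent of the choice, and their part in the results below was not tested beyond the rankings and the sums on thinned cells, which are given for some of the genes whose call they ended.

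The cells were chosen by their measured Col1a1, Col1a2 and Col3a1 counts, so these are given as a description. The median collagen-high cell spent 0.187, 0.180, 0.184 and 0.195% of its UMIs on the 3 genes in replicates 1 to 4, and the median collagen-low cell 0.0297, 0.0253, 0.0295 and 0.0298%. Col1a1 (chr11:94936224-94953042, plus strand, mm10) stood at 1443, 1411, 1439 and 1498 counts per 1000000 UMIs (CPM) in the summed collagen-high cells and at 255, 229, 243 and 241 CPM in the collagen-low cells. Col1a2 (chr6:4504814-4541544, plus strand) stood at 492, 553, 531 and 646 CPM against 55.6, 52.9, 59.5 and 62.6 CPM. Col3a1 (chr1:45311538-45349706, plus strand) was scarce in both groups, at 2.69, 5.05, 9.19 and 4.86 CPM against 0.127, 0.0870, 0.161 and 0.477 CPM. The ranking was therefore mostly one by type I collagen, and Col1a1 supplied 69.7 to 74.5% of the score UMIs of the collagen-high cells.

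Set beside whole libraries, the collagen-high cells at 39 °C had more Col1a1 message than the mean of all cells at 37 °C, 1448 ± 36.5 CPM (SD, n = 4 libraries) against 1024 ± 33.6 CPM. Choosing cells by these counts favors a level above the mean of unselected cells. The collagen-high cells at 39 °C had less Col1a2, 556 ± 65.7 against 675 ± 9.37 CPM, and less Col3a1, 5.44 ± 2.71 against 11.97 ± 0.610 CPM. Cells chosen by the same rule at 37 °C had more of each score gene than those chosen at 39 °C. They stood at 1976 ± 72.1 CPM for Col1a1, 1327 ± 52.3 for Col1a2 and 32.9 ± 3.89 for Col3a1 (SD, n = 4 libraries). All kept cells at 39 °C stood at 592 ± 8.94 CPM for Col1a1, 187 ± 9.42 for Col1a2 and 1.08 ± 0.491 for Col3a1. Every collagen-high cell at 39 °C lay above the lowest median collagen share of the 37 °C libraries. By library, 85.3 to 100% of them lay above the highest of those medians. Those medians were of unselected cells, and the share is the one that chose the collagen-high cells. There was no gap at the limit: the last cell inside and the first cell outside had shares of 0.1498 and 0.1497% in replicate 1, 0.1489 and 0.1485% in replicate 2, 0.1508 and 0.1506% in replicate 3, and 0.15779 and 0.15776% in replicate 4. In replicate 2 these shares rested on 9 and 11 collagen UMIs, so cells near the limit could change sides by counting error.

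**Figure D1:**
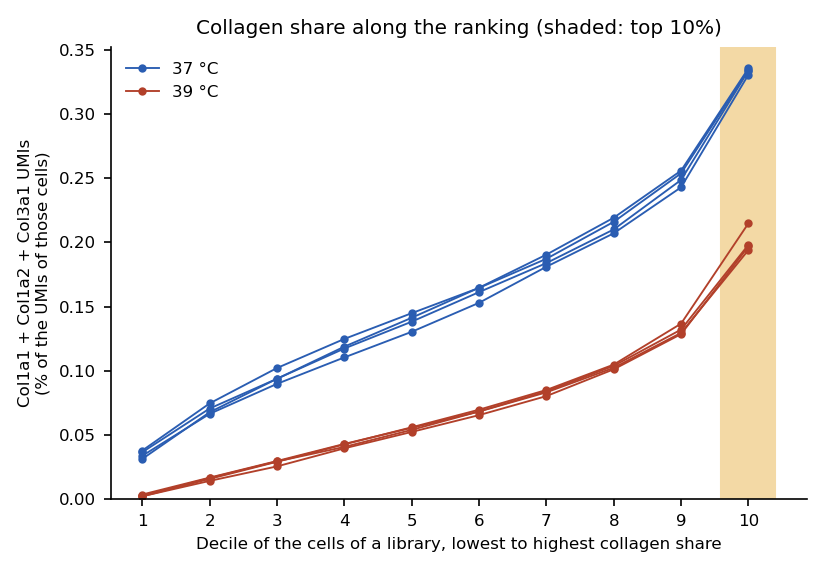
Collagen share (percent of UMIs from Col1a1, Col1a2 and Col3a1, y axis) in the summed cells of each decile of the ranking (x axis), 1 line per library. At 39 °C the shaded top decile, the collagen-high cells, reached 0.194 to 0.215%, and the curve climbed without a step at its edge; the 37 °C lines lay above it throughout.

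To see what else went with collagen at 39 °C, UMIs were summed per library over the collagen-high and over the collagen-low cells, and each gene was tested for the within-library difference with edgeR's quasi-likelihood test and Benjamini-Hochberg adjustment. Genes with an adjusted p below 0.05 were called whatever the size of their change, and the 3 score genes were left out. Of 13810 genes tested, 2379 (17.2%) were higher and 2844 (20.6%) lower in collagen-high cells. Many of these calls were small: 415 of the higher and 506 of the lower genes differed by more than 1 on the log2 scale. The median over all tested genes was -0.03. The 10 largest rises and the 10 largest falls were taken among called genes of at least 20 CPM with the same sign in 4 of 4 libraries, so that agreement was a condition of the choice. None of the 20 had overlapping groups, and 31.9% of all tested genes had none either. Picking the largest called changes favors groups without overlap, so this is a description and no separate evidence.

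The largest rises were those of the smooth muscle actin network. Acta2 (chr19:34241090-34255590, minus strand), which encodes the actin of smooth muscle and contractile fibroblasts, reached 68.9, 146, 56.6 and 138 CPM in collagen-high cells of replicates 1 to 4 and 4.43, 3.72, 5.44 and 15.4 CPM in collagen-low cells, a log2 fold change of 3.83 ± 0.09 (SE). Replicates 2 and 4 were the highest, and the lowest collagen-high library still stood well above the highest collagen-low one. With single libraries left out, the log2 fold change of Acta2 ran from 3.37 to 4.31. Each SE here and below comes from edgeR's fit, which shares spread across genes, and can be narrower than the spread of the 4 libraries. Tagln (chr9:45929619-45936058, minus strand), the actin-binding transgelin of the same fibers, reached 14.2, 62.7, 47.9 and 32.7 CPM against 2.15, 1.95, 3.41 and 5.47 CPM, a log2 fold change of 3.65 ± 0.13 (3.16 to 4.10 with single libraries left out). Even at their highest, both were below their level in the whole 37 °C libraries, where Acta2 averaged 227 ± 27.6 and Tagln 96.1 ± 14.0 CPM (SD, n = 4).

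Secreted proteins made up most of the remaining top 10. Ccdc80, a secreted matrix-associated protein, stood at 448, 400, 436 and 404 CPM against 79.7, 76.7, 83.1 and 84.5 CPM, a log2 fold change of 2.38 ± 0.04. The 4 libraries differed little, and the whole 37 °C libraries stood at 391 ± 17.9 CPM. Igfbp2, a secreted binder of insulin-like growth factors that is also prominent in meninges, stood at 401, 338, 266 and 256 CPM against 61.3, 52.9, 58.4 and 55.1 CPM (log2 fold change 2.44 ± 0.05) and here exceeded the 37 °C mean of 152 ± 15.4 CPM. Prg4, the lubricant proteoglycan lubricin, stood at 50.5, 66.7, 77.9 and 52.9 CPM against 11.1, 9.73, 6.49 and 9.59 CPM (2.81 ± 0.10).

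The small leucine-rich proteoglycans osteomodulin and osteoglycin, whose genes Omd and Ogn are neighbors on chromosome 13, rose together. Omd stood at 150, 124, 120 and 91.3 CPM against 19.9, 16.9, 24.0 and 19.5 CPM (log2 fold change 2.57 ± 0.07), and Ogn at 44.2, 68.7, 51.6 and 79.2 CPM against 8.86, 11.9, 14.1 and 13.7 CPM (2.31 ± 0.09). Both bind or organize collagen fibrils in connective tissue. Wisp2, a matricellular protein of the CCN family, stood at 22.1, 23.9, 19.2 and 25.9 CPM against 3.16, 3.36, 3.25 and 3.26 CPM (2.79 ± 0.16), with almost no spread between libraries in the collagen-low cells.

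Il33 and Slurp1 completed the top 10. Il33, a cytokine stored in the nucleus and released from damaged cells, stood at 56.8, 52.9, 61.5 and 48.1 CPM against 6.20, 11.5, 15.3 and 9.11 CPM (2.33 ± 0.10), while whole libraries at 37 °C held only 4.69 ± 1.01 CPM. Slurp1, a small secreted protein of the Ly6 family, stood at 18.4, 32.0, 26.6 and 21.4 CPM against 1.90, 5.31, 4.38 and 5.28 CPM (2.52 ± 0.15). Slurp1 was the 1 gene of the 20 that lost its call under an alternative: with Col1a1 left out of the score its log2 fold change was 0.01. In that ranking Il33 was 0.96 and Prg4 1.29, both still called. The other 19 were called with the same sign under all 24 alternatives tried.

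Hs3st6, a heparan sulfate sulfotransferase, stood at 2.10, 3.03, 4.64 and 2.83 CPM in collagen-high cells and at 34.0, 35.3, 30.7 and 32.7 CPM in collagen-low cells, a log2 fold change of -3.31 ± 0.17. Man2b1, the lysosomal alpha-mannosidase, stood at 60.5, 68.7, 78.5 and 61.8 CPM against 354, 286, 290.4 and 267 CPM (-2.11 ± 0.05). Depdc7, a DEP domain protein, stood at 11.6, 10.8, 11.8 and 12.1 CPM against 93.9, 70.5, 72.1 and 65.9 CPM (-2.68 ± 0.10). Over all kept cells of a library, Hs3st6 averaged 3.52 ± 0.307 CPM at 37 °C (SD, n = 4) and 19.5 CPM at 39 °C, Man2b1 68.5 ± 4.65 and 193 CPM, and Depdc7 14.1 ± 1.70 and 45.6 CPM. The collagen-high cells at 39 °C thus stood near the 37 °C means of these 3 genes, with no test of that likeness. The other falls are not set beside 37 °C here, so the likeness is given for these 3 genes only and not for the falls as a group. The summed G2M marker genes of Seurat did not share that likeness, at 2122 to 2281 CPM in collagen-high cells at 39 °C. At 37 °C they stood at 4326 to 5803 CPM in collagen-high and 7712 to 8374 CPM in collagen-low cells.

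The other falls ran from -2.37 to -1.93. Bglap2, an osteocalcin gene with close copies beside it, fell by 2.37 on the log2 scale, although reads could be split between those copies. Evpl, which encodes the cornified envelope protein envoplakin, fell by 2.28. Cd68, a lysosomal glycoprotein best known from macrophages, stood at 6.31, 11.1, 8.35 and 10.9 CPM against 54.5, 43.3, 41.8 and 40.2 CPM (-2.24 ± 0.12). Cnst, the connexin-trafficking protein consortin, changed by -2.08, and Atg9b, an autophagy protein, by -2.02. Slc4a11, a transporter of the bicarbonate transporter family, changed by -1.93. Cdc20, the activator of the anaphase-promoting complex, stood at 9.47, 9.10, 7.42 and 8.08 CPM against 38.9, 34.4, 35.8 and 31.7 CPM (-2.05 ± 0.13).

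**Figure D2:**
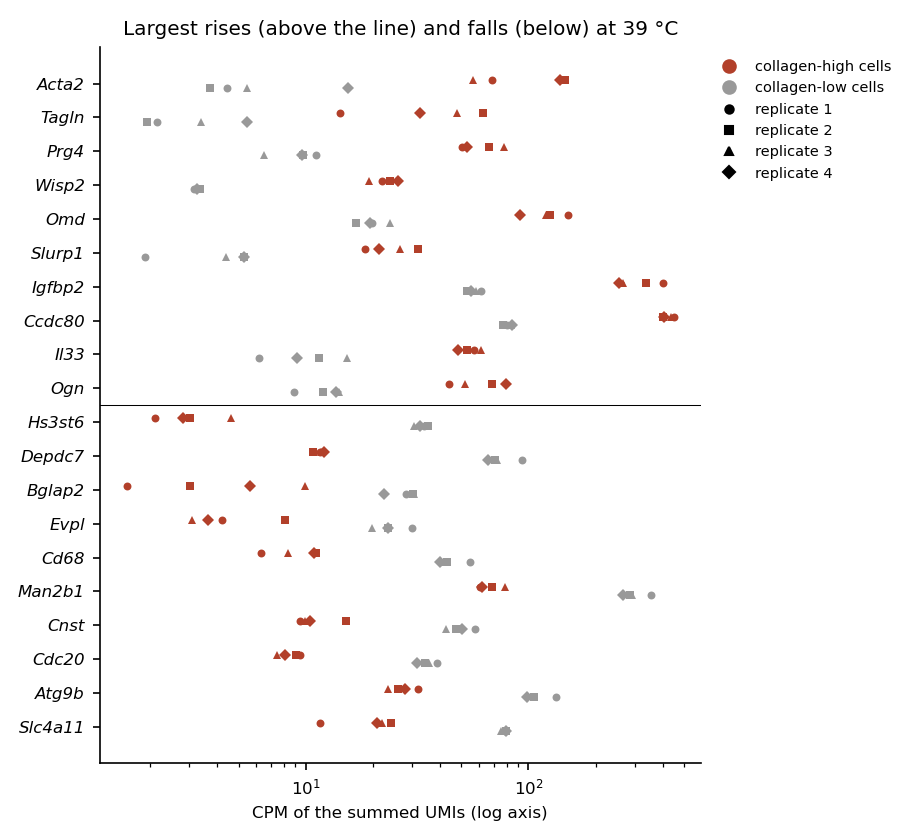
CPM of the summed UMIs (x axis, log scale) of the 10 largest rises, above the line, and the 10 largest falls, below it, at 39 °C. Each point is 1 of 4 libraries (shape: replicate), red for collagen-high and gray for collagen-low cells; the red and gray points of a gene do not overlap in any of the 20, and Acta2 spans 56.6 to 146 CPM in collagen-high against 3.72 to 15.4 CPM in collagen-low cells.

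Fixed lists of related genes were read by their counts and medians, beside 17.2% higher, 20.6% lower and a median of -0.03 over all genes. Among the other collagen chains, 25 of 41 genes had enough counts, 8 were higher, 5 lower, 12 were not called, and the median log2 fold change was 0.49, or 0.21 without replicate 2. In all, 9 members had no UMI in either group. Of the chains that rose, Col12a1, a collagen on the surface of type I fibrils, stood at 159.9, 156, 159 and 168 CPM against 47.7, 56.5, 61.1 and 61.3 CPM (1.49 ± 0.06). Col5a1, which nucleates those fibrils, rose by 1.37, Col5a2 by 0.82, and the microfibril chains Col6a1 and Col6a2 by 1.32 and 2.04. The 5 chains that fell, singled out after their values were seen, were Col9a3 (-1.47), Col4a6 (-1.10), Col5a3 (-0.98), Col16a1 (-0.93) and Col18a1 (-0.88). Col5a3 went against its type V partners, at 16.3, 15.5, 16.1 and 14.1 CPM in collagen-high cells against 33.7, 30.4, 27.4 and 32.3 CPM. The call of Col4a6 was lost without replicate 3 (-0.79).

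Of the genes that hydroxylate, fold, export and trim collagen, 20 of 32 tested were higher and 4 lower, with a median of 0.32. Most of the higher members moved little. Pcolce, which enhances the removal of the C-propeptide, was the clearest of them, at 549, 468, 489 and 449 CPM against 185, 198, 202 and 191 CPM (1.32 ± 0.04). Serpinh1, the collagen chaperone, rose by 0.30, and P4ha1 and P4ha2, the catalytic chains of prolyl 4-hydroxylase, by 0.56 and 0.29. Ppib, a proline isomerase that acts on collagen, was not called (0.08). The 4 lower members were Plod2 (-0.95), Fkbp9 (-0.74), Bmp1 (-0.20) and Creb3l1 (-0.18), named after their values were seen. Plod2, a lysyl hydroxylase of the collagen telopeptides, stood at 102, 86.9, 81.6 and 74.8 CPM against 186, 166, 156 and 156 CPM, without overlap. Bmp1, the C-propeptidase itself, lost its call without replicate 2, 3 or 4 and under 5 other settings, and Creb3l1, a transcription factor for type I collagen, lost its own under 15 of 24 settings.

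All 5 lysyl oxidases had enough counts, 3 were higher and none lower, with a median of 1.79. Lox stood at 60.5, 69.7, 81.6 and 83.6 CPM against 11.5, 21.1, 20.9 and 24.0 CPM (1.91 ± 0.08), with every collagen-high library above every collagen-low one. Loxl3 (2.14) and Loxl2 (1.68) were also called, while Loxl1 (1.79) and Loxl4 (0.35) were not. On sums of thinned cells Loxl2 was 0.90 and not called.

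Matrix glycoproteins and proteoglycans gave 16 higher and 4 lower of 32 tested, with a median of 0.52. Fbn1, the fibrillin of elastic microfibrils, stood at 97.3, 153, 138 and 152 CPM against 29.7, 35.4, 34.3 and 37.4 CPM (1.99 ± 0.06). Fbln5 rose by 1.90, Prelp by 1.78 and Sparc, a collagen-binding protein, by 1.19, while the widespread Fn1 rose by 0.50. Postn was called at 3.21, but its CPM of 0.526, 0, 4.64 and 1.21 in collagen-high cells was led by replicate 3, and without that library it was 1.88 and not called. The 4 that fell, named after their values were seen, were Tgfbi (-1.38), Vcan (-0.82), Spp1 (-0.64) and Ecm1 (-0.52). Spp1, osteopontin, stood at 250.3, 317, 344 and 303 CPM against 411, 482, 549.7 and 447 CPM but turned to 0.88 and was called higher when cells were ranked without Col1a1.

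Receptors and integrins gave 10 higher and 5 lower of 19 tested, with a median of 0.18. Itga1, the alpha chain of a collagen-binding integrin, rose by 1.94, Mrc2, the receptor that takes up collagen for degradation, by 1.26, and Itgb1 by 0.33. The collagen receptor kinases Ddr2 (-1.30) and Ddr1 (-0.50) were both lower, with Itga2 (-1.56), Itga6 (-0.44) and Itgav (-0.17), named after their values were seen. Proteases and their inhibitors gave 12 higher and 3 lower of 23 tested, with a median of 0.48. The inhibitors Timp1, Timp2 and Timp3 rose by 1.12, 0.81 and 1.20, and the membrane collagenase Mmp14 by 0.41. The lower members were Mmp3 (-1.76), Mmp15 (-1.12) and Serpine2 (-0.14), named after their values were seen. The calls of Itgav, Ddr2, Mmp3 and Serpine2 were lost when 1 library was left out: Itgav was -0.13 without replicate 2, Ddr2 was -1.01 without replicate 1 and -0.96 without replicate 2 (and -0.11 with Col1a1 left out of the score), Mmp3 -1.37, -1.62 and -1.30 without replicates 1, 2 and 4 (-3.29 and called without replicate 3), and Serpine2 -0.11 and -0.09 without replicates 2 and 4.

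Contractile genes under SRF gave 15 higher and 3 lower of 21 tested, with a median of 0.64. Acta2 and Tagln headed them. Cnn2, an actin-binding calponin, stood at 396, 398, 372 and 388 CPM against 122, 125, 133 and 139 CPM (1.58 ± 0.04), and Myl9, the regulatory light chain of smooth muscle myosin, was much scarcer at 3.16, 7.75, 5.88 and 7.27 CPM against 0.759, 0.442, 0.731 and 2.11 CPM (2.64 ± 0.32). Vcl, Flna and Tpm1, which anchor, cross-link and coat actin filaments, rose by 1.31, 1.12 and 1.04. Srf itself was not called (0.15), and turned to -0.02 without replicate 2. The 3 that fell, named after their values were seen, were Smtn (-1.12), Des (-1.03) and Mylk (-0.57).

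Targets of YAP and TEAD, the transcriptional pair that responds to cell tension, gave 13 higher and 3 lower of 20 tested, with a median of 0.28. Amotl2 led them at 139, 139, 128 and 148 CPM against 54.3, 58.9, 62.3 and 65.3 CPM (1.19 ± 0.06), while the classic targets Cyr61 and Ankrd1 rose by 0.37 and 0.62. The lower members, named after their values were seen, were Axl (-0.44), Ptpn14 (-0.44) and Arhgef17 (-0.33).

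The TGF-beta list, ligands and receptors of the main inducer of collagen genes, was split, with 12 higher and 9 lower of 26 tested and a median of 0.10, or 0.22 without replicate 1. Among ligands, Tgfb3 rose by 1.17, Tgfb1 by 0.37 and Tgfb2 by 0.35. Among receptors, Tgfbr2 rose by 1.12, whereas Tgfbr1 (-0.72), Tgfbr3 (-1.58) and Acvrl1 (-2.49) were lower. The signal carriers Smad2, Smad3 and Smad4 were all lower, by -0.40, -0.25 and -0.23. Of the responding genes, Ctgf stood at 36.3, 40.1, 44.5 and 52.5 CPM against 17.0, 13.4, 16.8 and 21.1 CPM (1.37 ± 0.10).

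Mesenchymal transcription factors gave 14 higher and 5 lower of 24 tested, with a median of 0.19. Snai1, a repressor that drives epithelial cells toward a mesenchymal state, stood at 21.6, 25.3, 19.5 and 24.6 CPM against 10.3, 8.94, 8.69 and 10.6 CPM (1.25 ± 0.13), and Foxf1 rose by 1.81 from low counts, a call lost without replicate 2 (1.48) and on sums of thinned cells (1.64). Twist1 rose by 0.21 and Prrx1 by 0.52. Runx1 (-0.29), Foxc1 (-0.27), Foxc2 (-0.71), Msx2 (-0.55) and Osr1 (-0.96), named after their values were seen, fell. The calls of Foxc1 and Msx2 were each lost when any of several single libraries was left out, with values of -0.29 to -0.20 and -0.63 to -0.37. Osr1 was -0.03 and not called with Col1a1 left out of the score.

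**Figure D3:**
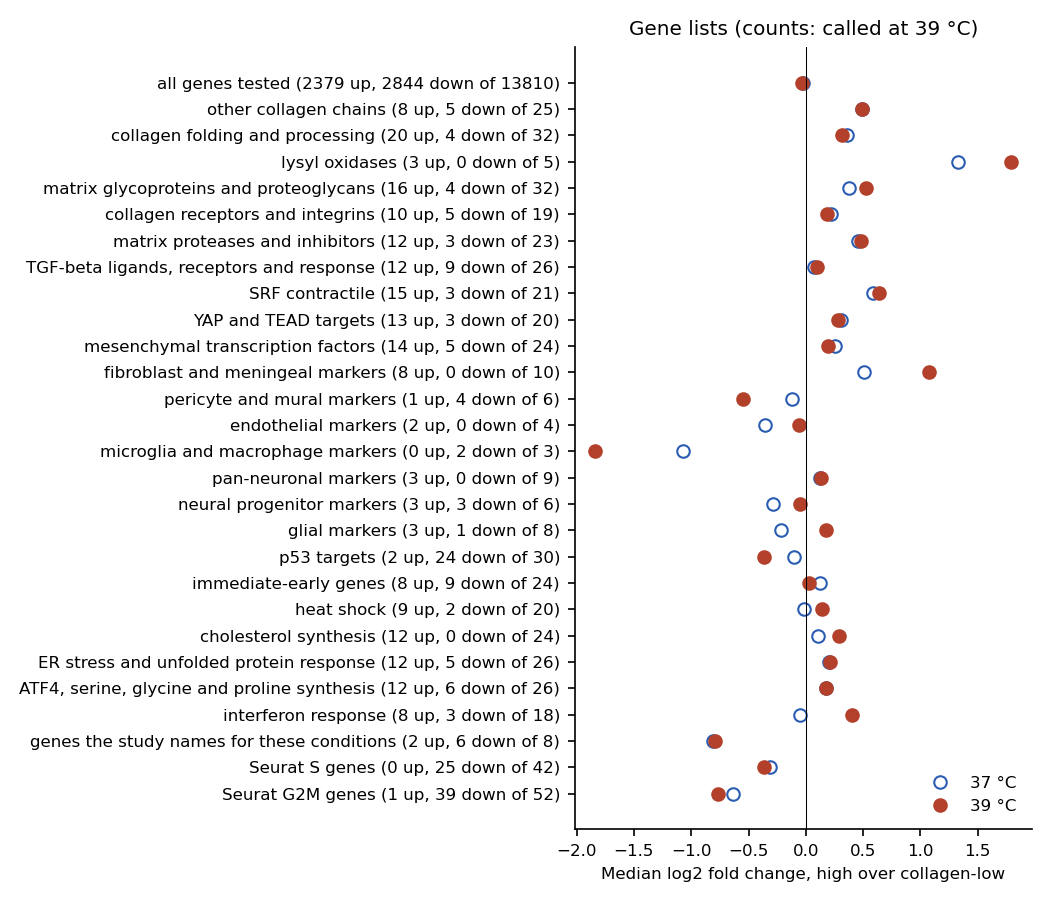
Median log2 fold change of each list, collagen-high over collagen-low cells (x axis), at 39 °C (filled) and 37 °C (open), with counts of members called higher and lower at 39 °C of those tested in brackets. Lysyl oxidases (1.79) and fibroblast and meningeal markers (1.07) lay farthest to the right at 39 °C. The lysyl oxidase median is the value of Loxl1, which was not called. The p53 targets (-0.36) and the G2M list (-0.76) lay to the left of the median of all genes (-0.03).

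Markers of other cell types were checked in the same sums. Of 18 fibroblast and meningeal markers 10 had enough counts, 8 were higher, none lower, and the median was 1.07. S100a4, a calcium-binding protein common in fibroblasts, stood at 263, 483, 553 and 466 CPM against 80.2, 124, 156 and 141 CPM (1.82 ± 0.04). The defining markers Lum, Fap, Aldh1a2 and Slc6a13 had no UMI in either group, so these cells are not called fibroblasts here. The summed level of the list was 8032 to 8602 CPM against 6334 to 6546 CPM. Its part in the rise of the matrix genes was not tested, and Ogn and Igfbp2 belong both to this list and to the largest rises.

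Pericyte and mural markers did not rise as a group, with 1 higher and 4 lower of 6 tested and a summed level of 207 to 235 CPM against 199 to 209.8 CPM. Pdgfrb, their growth factor receptor, was the higher one, at 117, 103, 110.4 and 119 CPM against 42.3, 52.0, 47.5 and 48.2 CPM (1.23 ± 0.06). Cspg4 (-0.48), Notch3 (-0.61), Des (-1.03) and Ndufa4l2 (-4.26) were lower, named after their values were seen, and Higd1b and Kcnj8 had no UMI. Ndufa4l2 had 1 UMI in collagen-high cells, in replicate 4, and its fitted value without that library, -6.90, is no bound. Des was -0.83 and not called on sums of thinned cells. Endothelial markers were scarce, with Cdh5, Cldn5 and Tie1 at 0 UMIs and a summed level of 32.1 to 43.8 CPM against 19.4 to 22.8 CPM. Of 4 tested, Ly6c1 (2.05) and Flt1 (0.65) were higher and none lower, with Flt1 at 0.08 and not called when Col1a1 was left out of the score. The microglia and macrophage list summed to 7.89 to 13.1 CPM against 42.3 to 59.6 CPM. Its lower members were Cd68 (-2.24) and Lyz2 (-1.84), with none higher of 3 tested, and C1qa, C1qb and Tyrobp had no UMI in either group.

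Neural markers did not move together. Nes, which encodes the intermediate filament nestin of neural progenitors and of several mesenchymal cells, stood at 238, 228, 272 and 248 CPM against 61.3, 69.7, 66.0 and 69.1 CPM (1.89 ± 0.05), still below the 468 ± 56.4 CPM of whole libraries at 37 °C. Of the 6 progenitor markers tested, Nes, Hes1 (0.45) and Pax3 (0.33) were higher and Sox2 (-0.93), Foxa2 (-0.52) and Notch1 (-0.44) lower, named after their values were seen. The call of Foxa2, a floor plate factor, was lost without replicate 2 (-0.39), and those of Hes1, Pax3 and Foxa2 were lost with Col1a1 left out of the score (0.03, 0.06 and -0.02). Sox2, the pluripotency and progenitor factor, stood at 47.3, 44.5, 53.8 and 46.9 CPM against 98.3, 94.1, 96.3 and 80.4 CPM. In all, 7 progenitor markers, among them Lmx1a and Sox1, had no UMI.

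Of 9 pan-neuronal markers tested, Stmn2 (2.04), Map2 (1.02) and Ncam1 (0.54) were higher and none lower. The median was 0.13, or 0.26 with Rbfox3, which had no UMI in collagen-high cells, set at its bound, and -0.15 without replicate 3. Stmn2, a microtubule regulator of growing neurites, stood at 88.9, 122, 140.1 and 112 CPM against 21.9, 30.4, 29.6 and 31.3 CPM, whereas Dcx, Elavl4 and Nefl had no UMI and Tubb3 was not called (0.13). Glial markers gave 3 higher and 1 lower of 8 tested, with a median of 0.17 that turned negative without replicate 1 or 4 (down to -0.21). Slc1a3 (1.73), Pdgfra (1.34) and Cnp (0.54) rose and Aldh1l1 (-1.34) fell, while Aqp4, Mog, Olig1, Olig2 and Sox10 had no UMI. The calls of Pdgfra and Cnp were lost without a single library, at 1.11 and 1.13 without replicates 1 and 4 and at 0.38 and 0.51 without replicates 2 and 4.

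Of the 8 genes the study names for these conditions, Nes and Irx3 (0.18) were higher and 6 lower, with a median of -0.80. Hmga2, a chromatin protein of growing embryonic cells, stood at 85.2, 136, 122 and 138 CPM against 275, 286, 296 and 305 CPM (-1.25 ± 0.05). Celf5 (-0.95), an RNA-binding protein of neurons, fell in 4 of 4 libraries, as did Cdh13 (-0.64), Id2 (-0.23) and Mki67 (-1.42). Mki67, the proliferation marker, turned to 1.10 in G1 cells only, but those cells were chosen by low scores on cell cycle genes that include it. With Col1a1 left out of the score Mki67 turned to 0.50, and the calls of Irx3 and Id2 were lost (0.05 and -0.11). The study chose these genes on these samples, so the list is not independent evidence of its direction.

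Targets of p53, the tumor suppressor that arrests or kills stressed cells and is bound by SV40 T antigen, were mostly lower: 24 of 30 tested fell, 2 rose and the median was -0.36. Pmaip1, the death-promoting NOXA, stood at 21.0, 17.9, 18.9 and 18.2 CPM against 56.7, 48.5, 50.7 and 52.2 CPM (-1.45 ± 0.10). Gdf15, a stress cytokine, stood at 159, 154, 181 and 125 CPM against 219.7, 200.3, 239.6 and 249 CPM (-0.55 ± 0.05), and Mdm2, the feedback inhibitor of p53, fell by 0.42. The 2 higher members, named after their values were seen, were Plk3 (0.44) and Cdkn1a, the cell cycle inhibitor p21 (0.16 ± 0.03), which had overlapping groups. The call of Plk3 was lost without replicate 2 (0.40) or 4 (0.43), and ranking without Col1a1 turned Cdkn1a to -0.17 and Plk3 to -0.02. The list's median lay between -0.50 and -0.25 under all alternatives, with -0.38 in G1 cells only.

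Cholesterol synthesis genes gave 12 higher and none lower of 24 tested, with a median of 0.29. Hsd17b7, a late step of the pathway, stood at 47.9, 44.1, 36.5 and 50.1 CPM against 12.4, 14.3, 14.7 and 14.0 CPM (1.65 ± 0.10). Cyp51, the lanosterol demethylase, rose by 1.05, and Sqle, the squalene epoxidase, by 0.96.

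Other stress and synthesis lists were mixed. ER stress genes gave 12 higher and 5 lower of 26 tested (median 0.21). The chaperones Calr and Hspa5 rose by 0.54 and 0.27, and the death-linked factor Ddit3 (-0.82), Ppp1r15a (-0.48), Edem1 (-0.32), Canx (-0.27) and Pdia3 (-0.14), named after their values were seen, fell. The call of Edem1 was lost without replicate 1 (-0.23). The ATF4, serine, glycine and proline list gave 12 higher and 6 lower of 26 tested (median 0.17). Within it Phgdh, the first enzyme of serine synthesis, stood at 36.3, 49.2, 60.0 and 42.8 CPM against 16.5, 20.1, 19.0 and 24.5 CPM (1.26 ± 0.09), and the proline enzymes Pycr1 and Aldh18a1 rose by 1.21 and 0.95 (Pycr1 was 0.90 and not called on sums of thinned cells), whereas the cystine transporter Slc7a11 fell by 2.14.

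Heat shock genes gave 9 higher and 2 lower of 20 tested (median 0.14). Hspa1b rose by 0.86, and the lower members, named after their values were seen, were Dnajb1 (-0.57) and Hspe1 (-0.09), the latter lost without replicate 1 (-0.06) or 3 (-0.07). Interferon response genes gave 8 higher and 3 lower of 18 tested (median 0.41). Psmb8, a subunit of the immunoproteasome, rose by 1.64, and Tap1 (-0.94), H2-K1 (-0.42) and B2m (-0.26), of the class I antigen pathway and named after their values were seen, fell. Immediate-early genes, which respond to handling as well as to growth signals, gave 8 higher and 9 lower of 24 tested, with a median of 0.03 that turned negative without replicate 2 or 3 (down to -0.07), with Klf2 at 1.33 and Fosl1 at -1.19.

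Phases were called with Seurat on cells thinned to 5000 UMIs. The share of collagen-high cells in S or G2M was 7.27 ± 1.48% (SD, n = 4 libraries), against 17.0 ± 0.941% of collagen-low cells, a difference of -9.77 percentage points that had the same sign in 4 of 4 libraries (two-sided exact sign-flip permutation test, p = 0.13, the smallest p that 4 libraries allow). The G2M share alone was 1.04 ± 0.786% against 5.77 ± 0.703%. By genes, none of 42 S markers rose and 25 fell, with a median of -0.36, and 1 of 52 G2M markers rose and 39 fell, with a median of -0.76. The 1 that rose was Cbx5, a heterochromatin protein named after its value was seen (0.61).

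These cell cycle differences changed sign with Col1a1 left out of the score. Ranked by Col1a2 and Col3a1 only, the cycling share of the top 10% was higher than that of the lower 50%, by 3.82 percentage points (exact sign-flip permutation test, p = 0.13), and the medians of the S and G2M lists were 0.19 and 0.13. That ranking rested on few UMIs. Col1a2 was detected in 34.0 to 42.2% of the collagen-low cells of a 39 °C library, and tied cells were ordered by barcode. The part of this sparseness in the change of sign was not tested. Ranked without Col1a2 the difference was -12.7 points, and ranked on thinned counts -6.56. Within G1 cells only, the medians were -0.09 and -0.03, but those cells were chosen by low scores on these same lists, so the values are no separate check. The lists for matrix, contraction and p53 targets kept the sign of their medians under each of these rankings, at 0.56 for the contractile, 1.30 for the lysyl oxidase and -0.50 for the p53 list without Col1a1.

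Levels were also followed along the whole ranking, for genes taken from the changes above. From the lowest to the highest decile of cells by collagen share, Ccdc80 climbed from 27.1 to 423 CPM, Igfbp2 from 21.5 to 315 and Nes from 44.5 to 248 (means of 4 libraries, with no test, since the deciles hold the same cells as the groups above). Lox climbed from 10.2 to 74.4 CPM. Acta2 went from 1.63 to 103 CPM but not evenly, with 21.2 CPM in decile 5 and 12.1 CPM in decile 6; in decile 5 the libraries ranged from 7.68 to 50.8 CPM. Man2b1 declined from 538 to 67.7 CPM, Atg9b from 166 to 27.4 and Hs3st6 from 68.1 to 3.15 CPM.

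**Figure D4:**
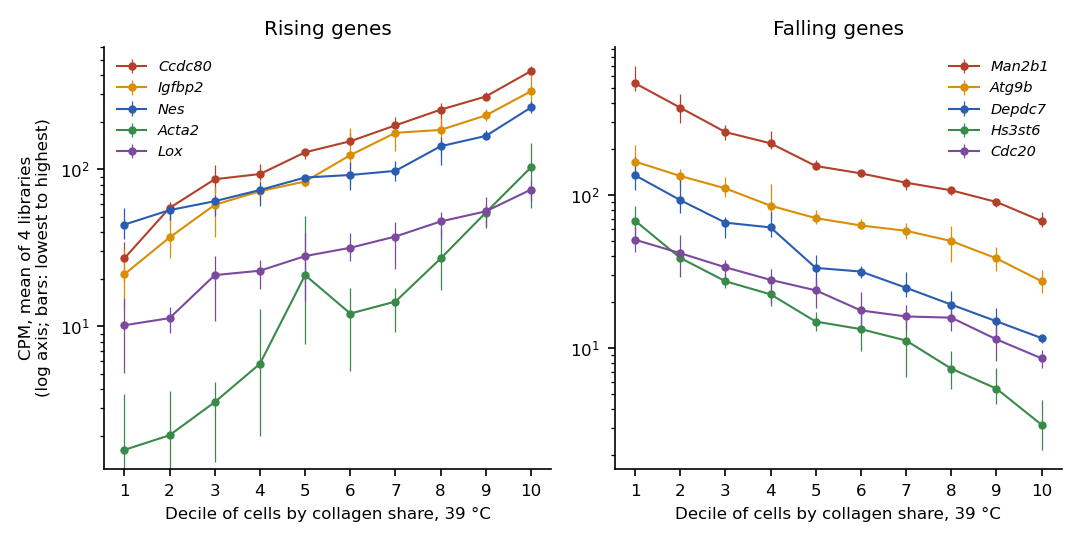
CPM in each decile of cells by collagen share at 39 °C (x axis, lowest to highest share), on a log y axis, for 5 rising genes (left) and 5 falling genes (right). Points are means of 4 libraries and bars run from the lowest to the highest library (cut at the axis where a library had 0 CPM, as for Acta2 in deciles 1 and 2); Ccdc80 climbs from 27.1 to 423 CPM and Hs3st6 declines from 68.1 to 3.15 CPM.

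The collagen-high cells overlapped only in part with other cells picked the same way in their library. On average 22.4 ± 1.10% (SD, n = 4) of them were also among the top 10% by the share of Acta2, Tagln and Myl9, against 5.35 ± 0.825% of collagen-low cells. By the share of Nes it was 29.6 ± 4.06% against 4.47 ± 0.321%. By Enpp2, which encodes the enzyme autotaxin, the values were 11.4 ± 3.30% and 8.39 ± 0.401%, with the lowest collagen-high library, at 7.37%, below all 4 collagen-low values. Most collagen-high cells thus lay outside the contractile set, and most outside the Nes set, although the sums of both gene groups were higher in them. The contractile pick rested on few UMIs per cell. The median kept cell of a 39 °C library held 8073 to 17053 UMIs, and Acta2 stood at 3.72 to 15.4 CPM in collagen-low cells. The part of counting error in these overlaps was not tested.

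The same split was made in the 4 libraries at 37 °C, which the rule did not use, to ask whether the genes that go with collagen are those of the 39 °C cells. There 788 of 7882 kept cells formed the top 10%. Of 14056 genes tested, 1976 (14.1%) were higher and 2090 (14.9%) lower. Of 13469 genes tested at both temperatures, 1275 were higher in both, 53.7% of those higher at 39 °C and 65.1% of those higher at 37 °C. A further 1280 were lower in both, 45.3% and 61.4% of the respective lists. In opposite directions were 88 genes that were higher at 39 °C and lower at 37 °C and 67 the other way. The cycling share was lower in collagen-high cells at 37 °C as well, 59.7 ± 3.56% against 78.0 ± 3.68%, and the difference between temperatures was 8.57 percentage points (exact permutation test over the 70 assignments of 8 libraries, two-sided p = 0.0286, the smallest it can give). The collagen-low shares from which these falls were taken were far apart, at 17.0 and 78.0%, and no test was made of the relative falls. The difference was 4.13 points and did not pass with Col1a2 left out of the score (exact permutation test, p = 0.114), 15.6 with Col1a1 left out and 14.0 with the top 5% of cells.

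The difference of the split between temperatures was tested in 1 fit over all 16 sums. The split by collagen was itself wider in ratio at 39 °C. Summed collagen-high cells spent 0.194 to 0.215% of UMIs on the 3 score genes there, against 0.0281 to 0.0311% in collagen-low cells. At 37 °C these shares were 0.330 to 0.336% against 0.0892 to 0.101%. The part of this unequal width in the differences between temperatures was not tested. Of 13962 genes, 863 (6.18%) had a higher log2 fold change at 39 °C and 1330 (9.53%) a lower one. That split depended on the scaling and was 1145 and 948 with DESeq2-type size factors, 1119 and 967 with upper-quartile factors and 1190 and 910 with library totals, so the direction of a small difference is not given here. The large ones below kept their sign under each of these scalings.

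Acta2, Igfbp2, Il33 and Slurp1 had larger log2 fold changes at 39 °C than at 37 °C. Acta2 had a log2 fold change of 3.83 at 39 °C and of 1.84 at 37 °C, where it stood at 425, 465, 307 and 451 CPM in collagen-high against 113, 97.2, 85.5 and 172 CPM in collagen-low cells. The difference was 1.97 ± 0.11 (SE; edgeR adjusted p = 1.48e-47). It ran from 1.495 to 2.52 with single libraries left out, a wider range than this SE conveys. Igfbp2 stood at 204, 212, 185 and 208 CPM against 135, 139, 148 and 121 CPM at 37 °C, a log2 fold change of 0.58 and a difference of 1.84 ± 0.07. Il33 was not called at 37 °C (0.36; edgeR adjusted p = 0.237), and the difference was 1.94 ± 0.22. Slurp1 was not called either (0.38; edgeR adjusted p = 0.0542), with a difference of 2.12 ± 0.21, which turned to -0.37 and was lost with Col1a1 left out of the score.

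Sprr2k, a small proline-rich protein of cornified envelopes with many close copies between which reads could be split, had the largest difference, 2.40 ± 0.38, but it rested on replicate 3. Its CPM in collagen-high cells at 39 °C was 4.21, 2.69, 26.0 and 5.25, and without replicate 3 the difference was 1.10 and not called (edgeR adjusted p = 0.136). Omd, Ccdc80, Tagln and Prg4 also had larger log2 fold changes at 39 °C, by 1.70, 1.26, 1.47 and 1.12. The difference of Tagln was 0.97 without 39 °C replicate 2, and that of Prg4 turned to -0.04 with Col1a1 left out of the score. Wisp2, at 2.79 and 2.67, did not pass the test of the difference, whose 0.09 ± 0.20 was small beside either value.

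Matrix genes were among those with a lower log2 fold change at 39 °C. Col5a3 went with collagen at 37 °C, where it stood at 26.8, 33.5, 23.6 and 29.6 CPM against 17.0, 14.3, 14.5 and 16.2 CPM (0.86), and against it at 39 °C (-0.98), a difference of -1.87 ± 0.15. Creb3l1 stood at 101, 97.0, 105 and 105 CPM against 40.4, 36.1, 38.0 and 40.1 CPM at 37 °C (1.40) but at 55.7, 61.3, 56.9 and 60.2 CPM against 72.3, 67.5, 61.9 and 65.9 CPM at 39 °C (-0.18), a difference of -1.61 ± 0.09. Adamts2, the enzyme that removes the collagen N-propeptide, changed by 1.90 at 37 °C and by 0.44 at 39 °C (difference -1.49 ± 0.16).

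The remaining large negative differences were those of Cnst (-1.56 ± 0.21) and Cdc20 (-1.46 ± 0.16), which were lower in collagen-high cells at both temperatures and more so at 39 °C. The difference of Cdc20 was not called in G1 cells only (-0.94, edgeR adjusted p = 0.214), but those cells were chosen by low scores on cell cycle genes that include Cdc20. At list level the 39 °C and 37 °C medians were 0.49 (0.21 without 39 °C replicate 2) and 0.49 for other collagen chains, 0.32 and 0.36 for collagen folding, 0.64 and 0.59 for contractile genes and 1.79 and 1.33 for lysyl oxidases. The p53 targets stood at -0.36 and -0.10, with 24 and 11 lower of 30, cholesterol synthesis at 0.29 and 0.10, with 12 and 5 higher of 24, and the interferon list at 0.41 and -0.05, with 8 and 3 higher of 18. The lists' differences were not tested.

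**Figure D5:**
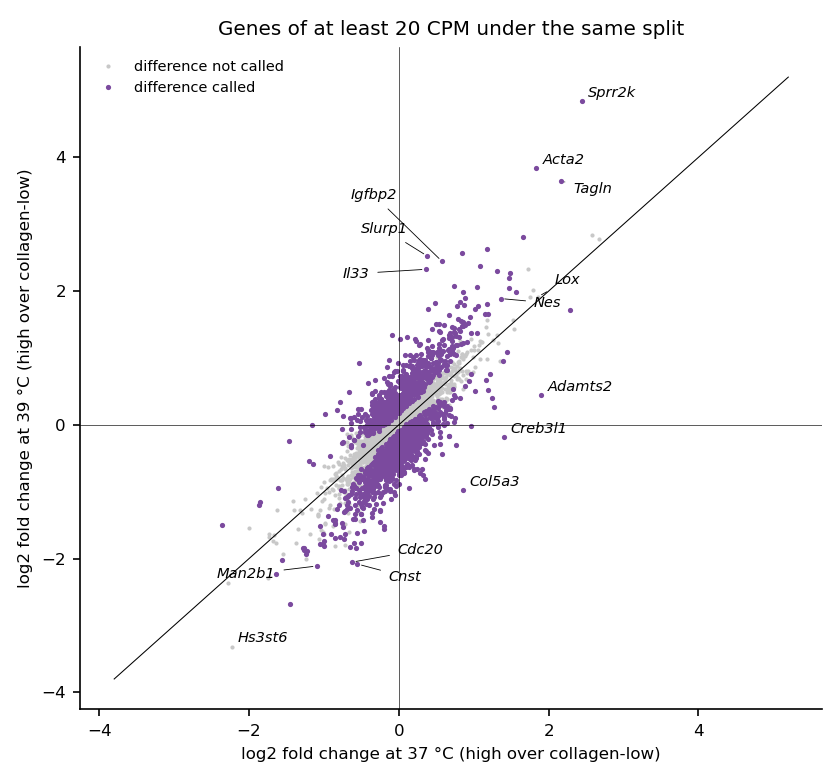
Log2 fold change of collagen-high over collagen-low cells at 37 °C (x axis) and 39 °C (y axis) for the 7050 genes of at least 20 CPM in any of the 4 groups, purple where the difference between temperatures was called (1900 genes) and gray otherwise, with the line of equal change. Acta2, Igfbp2, Il33 and Slurp1 lie above the line, and Col5a3, at 0.86 and -0.98, lies below it on opposite sides of 0.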

How the data were processed

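Single-cell transcriptomes of SN4741 cells were measured in 8 Chromium 3' V3 libraries from trypsinized cultures, 4 at 37 °C and 4 at 39 °C. The authors aligned reads to mm10 and counted UMIs per gene and cell with Cell Ranger 3.0.1, and the deposited files hold these raw counts for called cells, 1 matrix per library. The annotation release is not given in the sources used here. Gene coordinates are from GENCODE M21 on the same build.

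Of 19125 deposited cells, 334 exceeded 15% mitochondrial UMIs, 440 exceeded 6000 genes, 29 had under 200 genes and 2588 had under 5000 UMIs (1783 of them at 39 °C), with overlap between these filters, and 16015 were kept. Counts were summed per library over the top 10% and the lower 50% of cells by collagen share. Genes averaging 1 count or more per sum were tested with edgeR 4.0.16 (R 4.3.3, quasi-likelihood, TMM factors, library as a block, since both sums of a pair come from the same library). The replicate numbers of the 37 °C and 39 °C libraries were used as names only. CPM of the summed groups are per 1000000 UMIs of the tested genes, scaled by the TMM factors. For the score genes in these groups they are per 1000000 of all UMIs, unscaled. For whole libraries and deciles they are per 1000000 UMIs without the score genes, also unscaled. Phases came from Seurat 5.3.0. DESeq2 1.42.0, other scalings, filters, rankings, cell limits, sums of thinned cells and leaving out libraries were alternatives. The members, lists and tests were chosen with earlier results of these data known.

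On counts simulated from these libraries, a log2 change of 1 was given to 200 genes, all drawn from genes with many counts. The same small spread was used for every gene, so the recovery says nothing about genes of few UMIs. The test recovered 200 with 14 false calls among 13622 genes for the 39 °C split. It recovered 199 with 10 among 13888 for the 37 °C split and 182 with 6 among 13855 for their difference. The text names the 10 largest rises and falls of at least 20 CPM, up to 4 called and up to 2 uncalled genes per list, the 5 largest differences between temperatures in each direction, the genes the study names, members of counts of 5 or fewer, and, chosen after their values were seen, the other list members given with a log2 fold change. No sequence is printed, since none entered the comparisons. The chemistry counts the 3' end, so CPM of different genes were not compared.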

Additional observations from a re-analysis of the deposited data

Results flagged for a closer look

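Of 56 sets of 4 libraries checked for a library far from the others, 3 had one, and chance alone flags about 1 set in 20. Acta2 in collagen-low cells stood at 15.4 CPM in replicate 4 against 3.72 to 5.44 CPM in the other libraries. In collagen-low cells of replicate 2 the median number of genes on thinned counts was 2103.5, where the highest library had 2120.0, and the median collagen share was 0.0253%, where the highest had 0.0298%.

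The log2 fold change of collagen-high over collagen-low cells differed between 39 °C and 37 °C by the test of the difference for 19 of the genes described. It was larger at 39 °C by 1.97 for Acta2, 1.47 for Tagln, 1.12 for Prg4, 1.70 for Omd, 2.12 for Slurp1, 1.84 for Igfbp2, 1.26 for Ccdc80, 1.94 for Il33, 0.96 for Ogn and 2.40 for Sprr2k. For genes lower at both temperatures the difference was -1.25 for Depdc7, -0.63 for Cd68, -1.05 for Man2b1, -1.56 for Cnst, -1.46 for Cdc20 and -0.49 for Atg9b. For genes that went with collagen at 37 °C it was -1.87 for Col5a3, -1.61 for Creb3l1 and -1.49 for Adamts2. The difference of Cd68 and that of Atg9b were no longer called under every other scaling tried. The effect on the cycling share differed by 8.57 percentage points, from collagen-low shares of 17.0% at 39 °C and 78.0% at 37 °C, and by 4.13 points with Col1a2 left out of the score (exact permutation test, p = 0.114).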

How the results depend on the processing

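Direction was steadier than the counts of calls. At 39 °C, 479 of 480 alternative values of the 20 largest changes stayed called with the same sign. Of 161 genes traced through 24 settings, 105 kept both sign and side of the threshold throughout. DESeq2 called 1571 genes higher and 1570 lower at 39 °C, 1188 and 985 at 37 °C, and 471 with a smaller log2 fold change at 39 °C than at 37 °C. On sums of thinned cells, which hold fewer counts, these were 1509 and 1879 at 39 °C, 1035 and 1044 at 37 °C, and 427 and 516 for the greater and smaller differences. In G1 cells, a smaller set, they were 881 and 921 at 37 °C, with 339 smaller differences. Without the library as a replicate block, 2046 genes were higher and 2430 lower at 39 °C, and 522 and 789 differences were called. Greater differences numbered 1581 with the top 20%, 564 with all other cells as comparison and 1883 ranked without Col1a1. Smaller differences numbered 773 with the top 5%, 763 with all other cells, 636 ranked on thinned counts, 633 with at most 5000 genes and 805 ranked without Col1a2. With single libraries left out they ran from 691 to 1214, with 788 without 39 °C replicate 3, 691 without 39 °C replicate 4 and 807 without 37 °C replicate 4. The cause of these moves was not tested unless named.

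Ranking without Col1a1 reversed the cycling difference (3.82 points). At 39 °C it also turned Mki67 (0.50), E2f8 (0.63), Clspn (0.12), Cdca2 (0.18), Spp1 (0.88), Cdkn1a (-0.17), Plk3 (-0.022), Hspe1 (0.045), Phlda3 (-0.15) and Adamts2 (-0.10), and at 37 °C Il33 (-0.36). It turned the differences of Prg4 (-0.044), Slurp1 (-0.37), Cd68 (0.025) and Atg9b (0.28). Ranking without Col1a2 turned Ppib (-0.0080), Cd34 (0.062) and Serpine2 (0.069) at 39 °C and Slurp1 (-0.16) at 37 °C. In G1 cells Mki67 (1.10) and Phlda3 (-0.0024) turned at 39 °C, Slurp1 (-0.11) and Il33 (-0.49) at 37 °C, and the difference of Atg9b (0.050). Ifit1 turned with at least 10000 UMIs (-1.39) and ranked on thinned counts (-0.15), Srf without 39 °C replicate 2 (-0.022, where leaving out single libraries gave up to 0.34), and Slurp1 at 37 °C with all other cells (-0.27) or at least 10000 UMIs (-0.21).

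Genes of a few CPM rest on few UMIs per library. A pool of 4 libraries cannot give an exact permutation p under 0.13 within a temperature, and the labels do not say that the libraries were separate cultures.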

Other observations

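At 37 °C the G2M share of collagen-high and collagen-low cells was 21.6 ± 3.79% and 37.8 ± 1.28% (SD, n = 4) and lower in 4 of 4 libraries (exact sign-flip permutation test, p = 0.13, the smallest p possible), while the S share was 38.1 ± 3.25% against 40.2 ± 2.63% (exact sign-flip permutation test, p = 0.625), with differences between -9.87 points in replicate 4 and 1.81 points in replicate 3. Whether the phases differed from each other was not tested. At 39 °C both shares were lower in collagen-high cells of all 4 libraries, with an S share of 6.24 ± 2.20% against 11.3 ± 0.647%.

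The overlap of collagen-high cells with other cells picked the same way was also measured at 37 °C. There 20.7 ± 2.55% (SD, n = 4) were among the top 10% by Acta2, Tagln and Myl9, against 5.05 ± 0.547% of collagen-low cells, and 24.0 ± 5.34% among the top 10% by Nes, against 3.88 ± 1.09%. By Enpp2 the values were 11.4 ± 3.01% and 9.99 ± 0.857%.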
